A study of Mus musculus with 28 samples.

Results

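Metabotropic glutamate receptors are G protein-coupled receptors for glutamate, and this report covers 6 of the genes that encode them, *Grm2*, *Grm3*, *Grm4*, *Grm5*, *Grm7* and *Grm8*. They were chosen by gene name through their Ensembl identifiers, and they are 6 of the 29878 genes listed in each count file and 6 of the 14979 genes tested.

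The libraries come from adult male mice aged 2 to 3 months, backcrossed to C57Bl/6, that were wild type (WT), heterozygous (Het) or knockout (KO) for *Hdc*, the gene for histidine decarboxylase. Bulk RNA was sequenced from 4 regions: the dorsal striatum (2 WT, 3 Het and 2 KO libraries), the ventral striatum (3 WT, 3 Het and 2 KO), the motor cortex (1 WT, 2 Het and 2 KO) and the hypothalamus (3 WT, 3 Het and 2 KO). The 28 libraries held 3536802 to 5150280 counts on genes, with a median of 4392301.5 and a total of 122446598. In the library names used here, the digit is the number in the sample label and the letter is the region, with b for dorsal striatum, a for ventral striatum, d for motor cortex and f for hypothalamus.

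The receptors fall into 3 groups. Group I (here *Grm5*) couples mainly to Gq, phospholipase C and calcium release and lies largely at the edge of the postsynaptic density, where Homer proteins bind it. Group II (*Grm2* and *Grm3*) and group III (here *Grm4*, *Grm7* and *Grm8*) couple to Gi/o, which lowers cyclic AMP, and many of them act as presynaptic receptors that reduce transmitter release, while *Grm3* is also made by astrocytes.

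*Hdc* was counted in every library first. In the hypothalamus the counts were 79, 111 and 94 in WT, 79, 117 and 78 in Het, and 54 and 66 in KO libraries. In the dorsal striatum they were 3 and 0 in WT, 33, 17 and 21 in Het, and 40 and 31 in KO. The ventral striatum gave 1, 6 and 0 in WT, 28, 20 and 23 in Het, and 49 and 51 in KO. The motor cortex gave 0 in WT, 20 and 21 in Het, and 45 and 29 in KO. Counts per gene do not separate the exons of the altered part of *Hdc* from the others, so they do not measure the loss of the gene; in CPM, the KO libraries were above the Het libraries and the Het libraries above the WT libraries in each of the 3 regions outside the hypothalamus (in the dorsal striatum 8.14 to 9.21 in KO against 4.17 to 6.73 in Het). In the hypothalamus both KO counts were below all WT and Het counts.

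The region labels were compared with marker genes. The summed CPM of striatal spiny neuron markers averaged 8644 in the dorsal and 2988 in the ventral striatum, beside 179 in motor cortex and 222 in hypothalamus. Cortical excitatory neuron markers averaged 2518 in the motor cortex and 286, 259 and 307 in the dorsal striatum, ventral striatum and hypothalamus. Hypothalamic markers averaged 268 in the hypothalamus and 9.17, 12.9 and 1.62 in the dorsal striatum, ventral striatum and motor cortex. The motor cortex and the hypothalamus thus had the highest sums for their own markers, and the spiny neuron markers were highest in the dorsal striatum and next in the ventral striatum.

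Some libraries stood apart from the others of their region in these markers. KO dorsal striatum library 7b had a cortical marker sum of 544.9 against 201.3 to 317.4 in the other dorsal striatal libraries, and its *Slc17a7* level was 179 CPM against 1.84 to 56.4 CPM. The 56.4 CPM was that of WT library 2b, which also held 19.7 CPM of *Tbr1* and 6.12 CPM of *Neurod6*, next after 7b among the dorsal striatal libraries. KO dorsal striatum library 8b had a choroid plexus sum of 3888, with 2706 CPM of *Ttr*, against sums of 120.6 to 255 in the others. KO hypothalamus library 8f had a cortical sum of 620.9 against 229 to 344.9, with 198 CPM of *Slc17a7* against 10.2 to 44.8 CPM. In the ventral striatum the spiny neuron sum ran from 1758 in KO library 8a to 4114 in KO library 7a, and Het hypothalamus library 6f had the highest thalamic sum of its region (971.4) and the lowest *Avp* level (3.70 CPM). These libraries were kept in all comparisons, each was also left out in turn, and the part that neighbouring tissue plays in the results was not tested further. Bulk RNA cannot tell fewer cells of a type from less RNA per cell.

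The 6 members were detected in each library. Across the 6 comparisons between regions, with genotypes pooled at equal weight, edgeR's likelihood ratio test called 29 of the 36 member values at an adjusted p of 0.05, and the same number was called in the quasi-likelihood test and in DESeq2. Between the dorsal and ventral striatum 3 of 6 members differed (2 higher and 1 lower in the dorsal striatum), beside 29.0% of all genes tested. The dorsal striatum differed from the motor cortex in 5 members (43.4% of all genes) and from the hypothalamus in 6 (56.1%). The ventral striatum differed from the motor cortex in 5 (43.7%) and from the hypothalamus in 6 (43.6%), and the motor cortex differed from the hypothalamus in 4 (48.2%). Without any normalization beyond library size, the median of all genes moved by -0.15 in dorsal against ventral striatum, -0.13 in dorsal striatum against motor cortex, -0.36 in dorsal striatum against hypothalamus, -0.21 in ventral striatum against hypothalamus and -0.24 in motor cortex against hypothalamus (log2), and 25 of the 36 values passed.

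**Figure D1:**
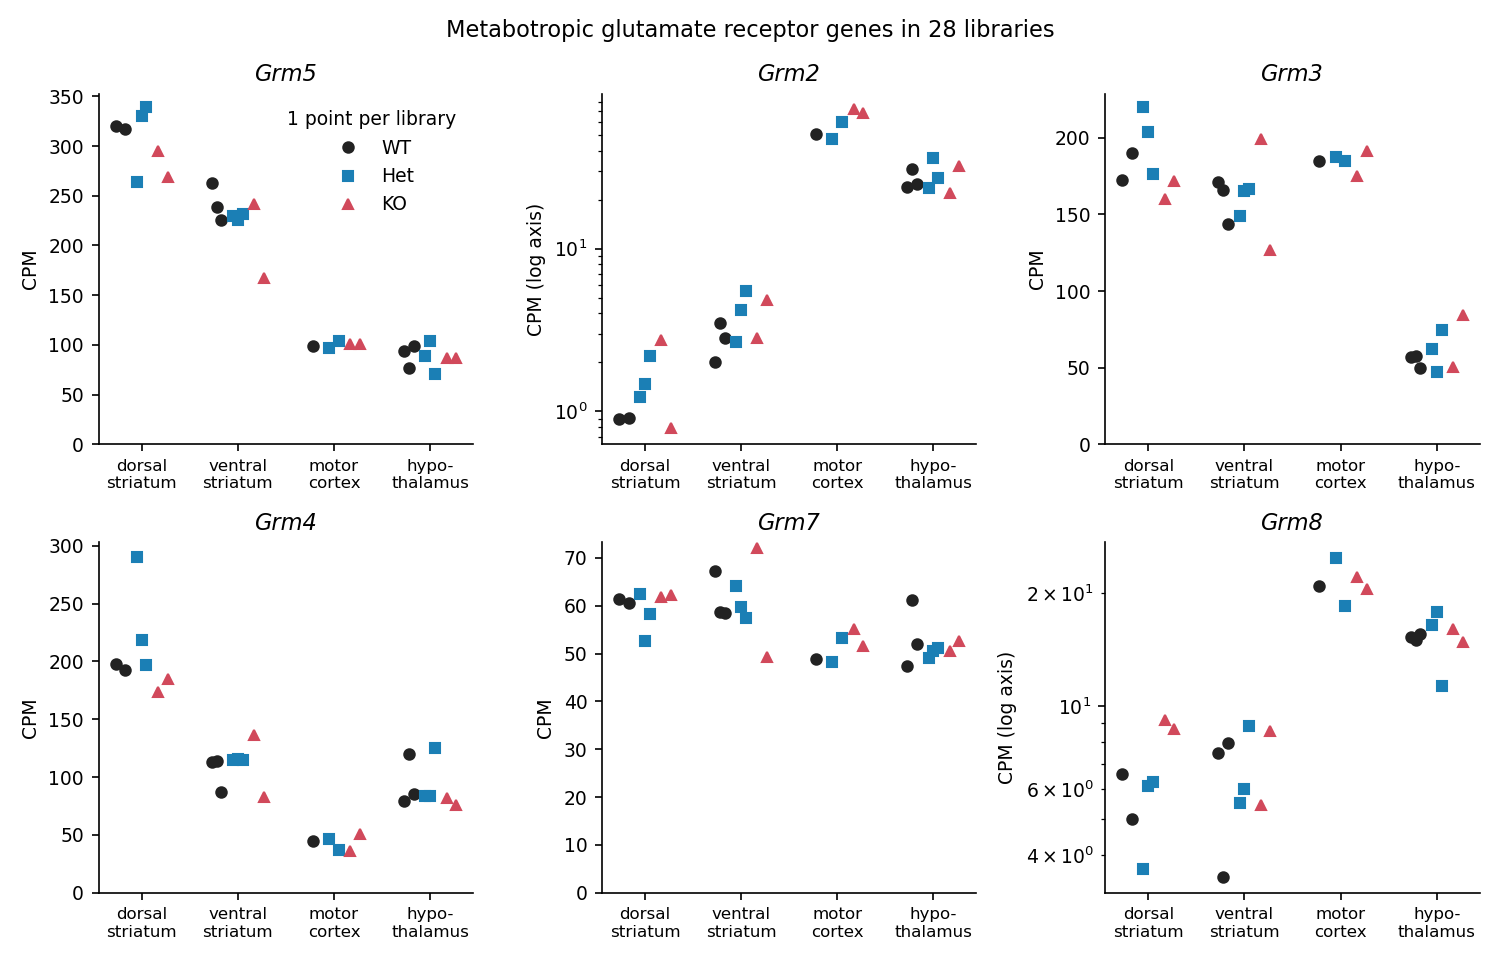
CPM of the metabotropic glutamate receptor genes in each of the 28 libraries, by region and genotype. *Grm2* and *Grm8* were highest in the motor cortex, and *Grm4* and *Grm5* in the dorsal striatum.

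In group I, *Grm5* was highest in the dorsal striatum, at 264 to 339 CPM with a median of 318. In the ventral striatum it was 167.5 to 262 CPM (median 230.4), and library 8a, with the lowest spiny neuron sum, held the lowest of these values. The 5 motor cortex libraries held 99.3 (WT), 97.0 and 103.7 (Het) and 100.6 and 100.8 CPM (KO), and the hypothalamus held 70.35 to 104 CPM with a median of 87.9. Every dorsal striatal library was above every ventral striatal one in TMM-scaled CPM, though with library size alone the lowest dorsal value, 234.9, was below the highest ventral one, 257.4, and the log2 difference was 0.28. In both scalings both striatal regions lay above all motor cortex and hypothalamus libraries. In edgeR the dorsal striatum was higher than the ventral striatum by 0.43 on the log2 scale (SE 0.087, adjusted p 5.43e-06). The contrast of WT libraries within the same fit gave 0.40 (adjusted p 0.0502). The dorsal striatum was also higher than the motor cortex by 1.60 (SE 0.104, adjusted p 7.77e-47) and than the hypothalamus by 1.79 (adjusted p 4.52e-86). Motor cortex and hypothalamus overlapped, and their difference of 0.18 did not pass (adjusted p 0.126), turned to -0.05 with library size alone, and passed without Het hypothalamus library 5f (0.23, adjusted p 0.0453).

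**Figure D2:**
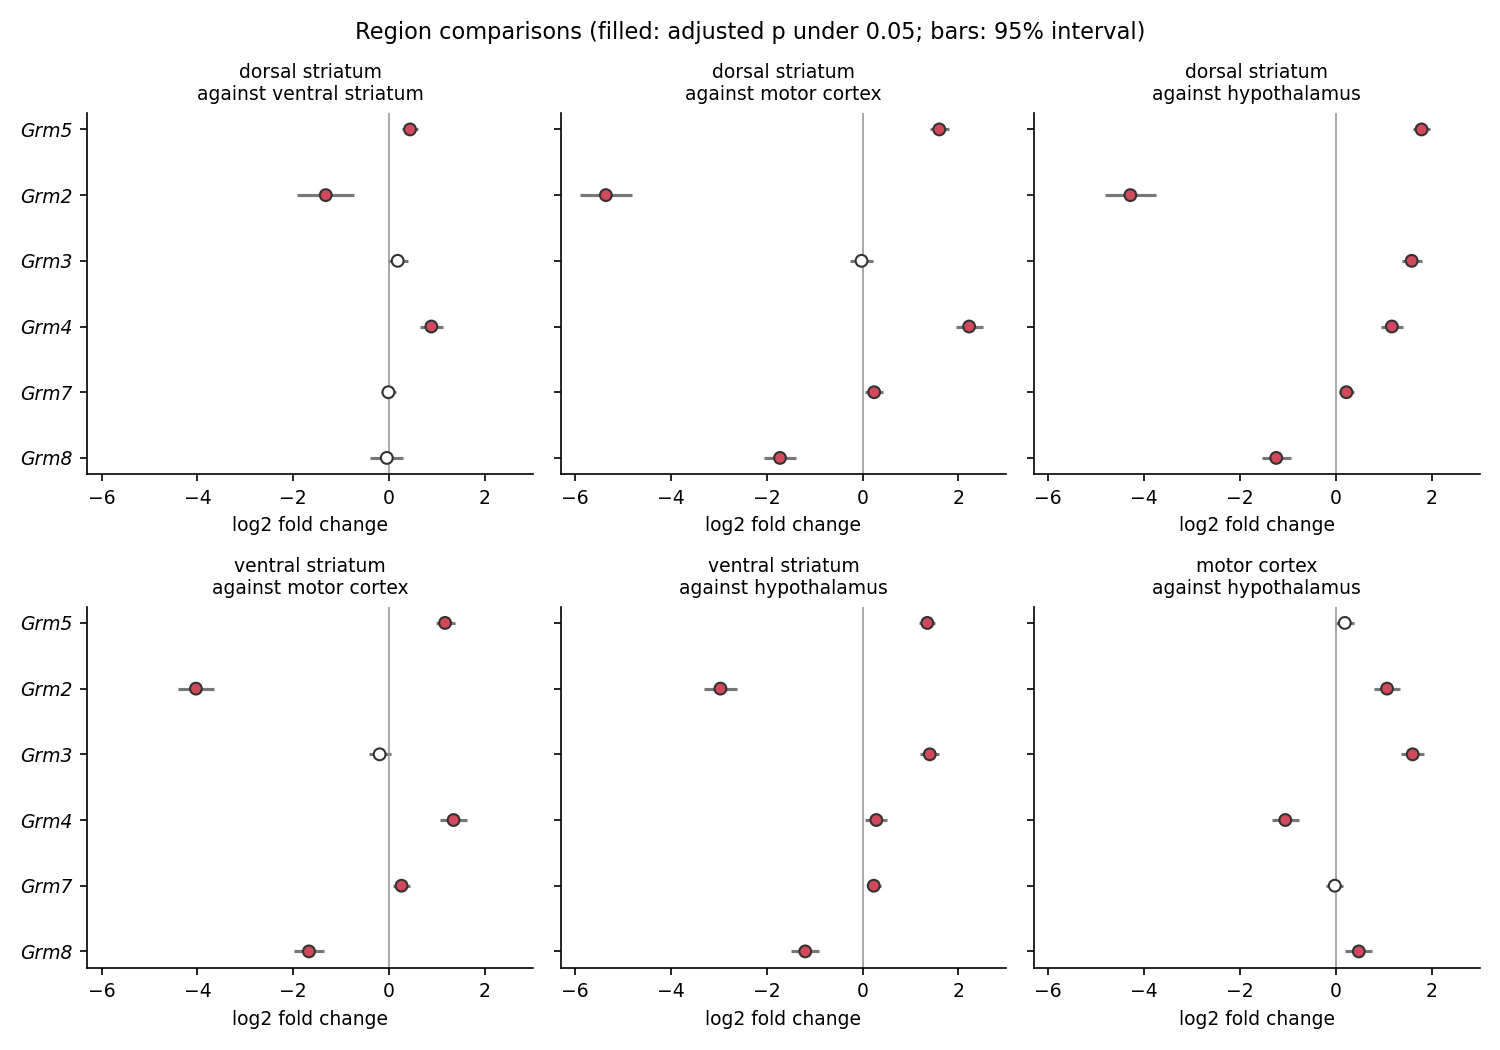
Log2 fold changes of the receptor genes in the 6 comparisons between regions, with 95% intervals. *Grm2* had the widest range, from -5.35 in dorsal striatum against motor cortex to 1.07 in motor cortex against hypothalamus; the value of 0.22 for *Grm7* in dorsal striatum against hypothalamus turned to -0.15 with library size alone.

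Of the group II genes, *Grm2* set the regions furthest apart. It was 50.95 CPM in the WT, 47.3 and 60.2 in the Het and 71.7 and 67.8 in the KO motor cortex libraries, and 21.9 to 36.1 CPM (median 26.1) in the hypothalamus. The ventral striatum held 2.02 to 5.51 CPM (median 3.17), and the dorsal striatum 0.787 to 2.76 CPM (median 1.22), from 3 to 12 counts per library. Motor cortex, hypothalamus and ventral striatum did not overlap with each other, and the ventral and dorsal striatum did. Against the motor cortex, edgeR put *Grm2* lower in the dorsal striatum by a log2 change of -5.35 (SE 0.277, adjusted p 1.61e-149), a difference of 40.9-fold, and in the ventral striatum by -4.03 (SE 0.188, adjusted p 5.65e-125). Against the hypothalamus the values were -4.29 in the dorsal striatum (SE 0.271, adjusted p 1.72e-98) and -2.96 in the ventral striatum (SE 0.178, adjusted p 2e-73), and the motor cortex was above the hypothalamus by 1.07 (adjusted p 7.48e-15). The dorsal striatum was below the ventral striatum by -1.32 (SE 0.301, adjusted p 1.94e-05), and the contrast of KO libraries within the same fit gave -1.04 (adjusted p 0.164).

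*Grm3* showed no such division. It was 160.2 to 220.3 CPM in the dorsal striatum (median 176.5), 126.5 to 199 CPM in the ventral striatum (median 166) and 185.1 (WT), 187.3 and 185.0 (Het) and 175.2 and 191.4 CPM (KO) in the motor cortex, and these 3 regions overlapped. The hypothalamus, at 47.3 to 84.25 CPM (median 57.5), lay below all of their libraries. The dorsal striatum was 1.58 (SE 0.107, adjusted p 2.26e-47), the ventral striatum 1.40 (adjusted p 5.19e-39) and the motor cortex 1.60 (adjusted p 2.83e-41) above the hypothalamus on the log2 scale. Dorsal against ventral striatum gave 0.18 (adjusted p 0.208) and ventral striatum against motor cortex -0.20 (adjusted p 0.163), and without KO ventral striatum library 7a both passed, at 0.30 (adjusted p 0.0144) and -0.32 (adjusted p 0.0128). The values of the 2 group II genes had a Pearson correlation of -0.47 over the 28 libraries.

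In group III, *Grm4* was highest in the dorsal striatum at 173.8 to 290.5 CPM (median 197). The ventral striatum held 83.0 to 137 CPM (median 114.5), the hypothalamus 75.4 to 125 CPM (median 83.6), and the motor cortex 44.7 (WT), 46.6 and 37.05 (Het) and 36.1 and 50.8 CPM (KO). The dorsal striatum lay above all other libraries and the motor cortex below all of them, while the ventral striatum and the hypothalamus overlapped. The dorsal striatum exceeded the ventral striatum by 0.88 (SE 0.12, adjusted p 5.38e-12), the motor cortex by 2.22 (SE 0.145, adjusted p 1.33e-43) and the hypothalamus by 1.17 (adjusted p 3.84e-21). Ventral striatum against motor cortex gave 1.34 (adjusted p 3.01e-18) and motor cortex against hypothalamus -1.06 (adjusted p 5.89e-12).

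The remaining *Grm4* comparison, ventral striatum against hypothalamus, was 0.29 (SE 0.117, adjusted p 0.0351) and depended on single libraries. It did not pass without any 1 of 11 libraries: WT 1a, 2a, 1f and 3f, Het 4a, 5a, 4f and 5f, and KO 7a, 7f and 8f. Over these the log2 value was 0.15 to 0.31 and the adjusted p 0.0503 to 0.331, with 0.15 reached without 7a. With library size alone it was 0.07 (adjusted p 0.654). The contrasts of WT, Het and KO libraries within the main fit were 0.14, 0.24 and 0.48 and did not pass.

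*Grm8* was highest in the motor cortex, with 20.9 (WT), 24.9 and 18.5 (Het) and 22.2 and 20.5 CPM (KO). The hypothalamus followed at 11.3 to 17.9 CPM (median 15.4). The dorsal striatum held 3.67 to 9.21 CPM (median 6.27) and the ventral striatum 3.50 to 8.86 CPM (median 6.76), and these 2 overlapped, while no striatal library reached a hypothalamic or cortical one and no hypothalamic library reached a cortical one (with library size alone the highest hypothalamic value, 20.16, was above the lowest cortical one, 17.4). Against the motor cortex the dorsal striatum was at -1.72 (SE 0.171, adjusted p 9.47e-24) and the ventral striatum at -1.67 (adjusted p 2.74e-24). Against the hypothalamus they were at -1.25 (adjusted p 2.12e-15) and -1.20 (adjusted p 2.22e-15). Motor cortex against hypothalamus gave 0.48 (SE 0.143, adjusted p 0.00226), which with library size alone was 0.24 (adjusted p 0.174) and in single genotypes 0.45 to 0.51 (adjusted p 0.0567 to 0.241). Dorsal against ventral striatum gave -0.05 (adjusted p 0.884).

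*Grm7* had the narrowest range between regions of the 6 members. Its CPM was 52.7 to 62.4 in the dorsal striatum (median 61.5), 49.3 to 72.1 in the ventral striatum (median 59.2), 48.8 (WT), 48.3 and 53.3 (Het) and 55.1 and 51.6 (KO) in the motor cortex, and 47.4 to 61.1 in the hypothalamus (median 50.9), with overlap between all regions. The dorsal striatum was above the motor cortex by 0.24 (SE 0.095, adjusted p 0.0267), the ventral striatum above the motor cortex by 0.26 (adjusted p 0.0147) and the ventral striatum above the hypothalamus by 0.23 (adjusted p 0.00722). Dorsal striatum against hypothalamus was 0.22 (SE 0.08, adjusted p 0.0128), and with library size alone the direction changed to -0.15 (adjusted p 0.128). Library size alone also gave 0.02 for ventral striatum against hypothalamus (adjusted p 0.867) and 0.12 for dorsal striatum against motor cortex (adjusted p 0.388), and the latter did not pass without a filter on low counts either (0.23, adjusted p 0.0709). Dorsal striatum against motor cortex did not pass without Het 5d (0.22, adjusted p 0.0788), without KO 8d (0.22, adjusted p 0.0693) or without WT 2d (0.20, adjusted p 0.114). Ventral striatum against motor cortex did not pass without 5d (0.23, adjusted p 0.0512), 2d (0.22, adjusted p 0.0826) or KO 7a (0.16, adjusted p 0.152), and ventral striatum against hypothalamus did not pass without 7a (0.13, adjusted p 0.166). Within single genotypes, with fewer libraries, these 4 *Grm7* differences were 0.19 to 0.33 and did not pass.

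Levels of different receptor genes were compared only per kilobase of exon or of coding sequence, with lengths from GENCODE M21, which is not the annotation the reads were counted on. Per kilobase of exon *Grm3* was the highest of the 6 members in each region, at 60.7 CPM per kb in the dorsal and 52.7 in the ventral striatum, 60.6 in motor cortex and 19.8 in hypothalamus. In the dorsal striatum *Grm4* (34.8) and *Grm5* (29.8) followed, with overlapping libraries, and in the ventral striatum *Grm5* (22.2) and *Grm4* (18.4) did so, also with overlap. In the motor cortex the next was *Grm2* (12.2), which overlapped with *Grm5* (9.79), and in the hypothalamus *Grm4* (15.4), which overlapped with *Grm3*. The lowest of the 6 was *Grm8* in motor cortex (2.16) and hypothalamus (1.55), while *Grm2* and *Grm8* overlapped as the lowest in the dorsal striatum (0.299 and 0.657) and in the ventral striatum (0.724 and 0.674). The order depends on the length used, since the exons of *Grm5* span 10247 bases and its coding part 3609, while those of *Grm3* span 3049 and 2637. Per kilobase of coding sequence, *Grm5* (84.5), *Grm4* (74.5) and *Grm3* (70.2) were the highest in the dorsal striatum, *Grm5* (63.1) and *Grm3* (61.0) in the ventral striatum, and *Grm4* (32.9), *Grm5* (24.4) and *Grm3* (22.9) in the hypothalamus, so that *Grm3* was highest by this length only in the motor cortex (70.1). By coding length the lowest in the ventral striatum was *Grm2* (1.35), below *Grm8* (2.41), with overlapping libraries. The libraries of the highest members by coding length also overlapped in the dorsal striatum, the ventral striatum and the hypothalamus.

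Summed over the 6 members, the level was 136 CPM per kb of exon in the dorsal striatum (SD 12.1), 105 in the ventral striatum (SD 12.7), 101 in motor cortex (SD 2.93) and 59.7 in hypothalamus (SD 5.43). Group II made up 72.3% of this sum in the motor cortex (SD 0.402), 50.8% in the ventral striatum (SD 1.37), 44.7% in the dorsal striatum (SD 1.40) and 42.4% in the hypothalamus (SD 4.47). *Grm5*, the member of group I, made up 9.73% in the motor cortex, 21.2% in the ventral striatum, 22.0% in the dorsal striatum and 14.6% in the hypothalamus, and group III 18.0%, 28.0%, 33.4% and 43.0% in the same order. The motor cortex thus carried the largest group II share and the hypothalamus the largest group III share. By coding length the group II share was 57.4% in the motor cortex, 33.1% in the ventral striatum, 27.9% in the dorsal striatum and 29.1% in the hypothalamus, so the motor cortex was again highest and the dorsal striatum and hypothalamus changed places.

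**Figure D3:**
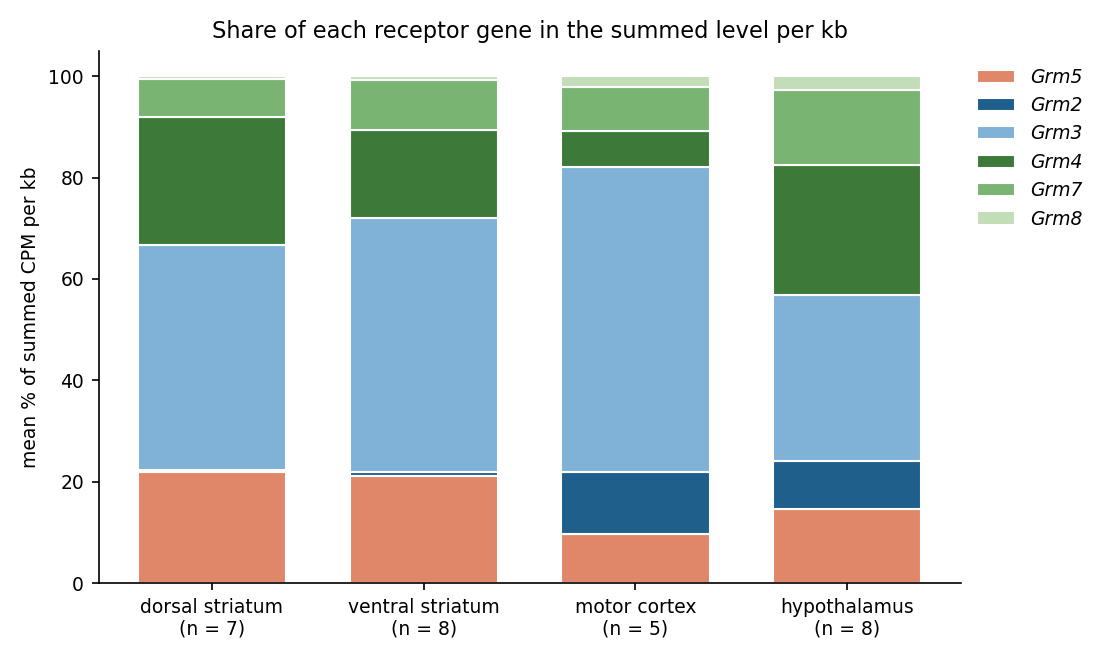
Share of each of the 6 members in their summed CPM per kb of exon, by region. Group II made up 72.3% for motor cortex and 42.4% for hypothalamus, and by coding length 57.4% and 29.1%.

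For each member, 2 or 3 tested genes whose log2 CPM followed it closely over the 28 libraries are given as a description. These were *Gng7* (r 0.989) and *Drd1* (0.989) for *Grm5*, and *Gabbr2* (0.985) and *Ywhah* (0.982) for *Grm2*. *Grm3* was followed by *Ptk2b* (0.983), *Cnksr2* (0.976) and *Prmt8* (0.975), and *Grm4* by *Tpst1* (0.966), *Nexn* (0.961) and *Cacng4* (0.949). For *Grm8* they were *Hsd11b1* (0.932), *Tspan17* (0.930) and *Prrg3* (0.929), and for *Grm7* *Ppil4* (0.802), *Slco5a1* (0.793) and *1810020O05Rik* (0.784). Between members, *Grm2* and *Grm8* had r 0.902, *Grm5* and *Grm4* 0.724, *Grm5* and *Grm2* -0.934, and *Grm4* and *Grm8* -0.807. Where the regions differ from each other more than the libraries within them, these values mostly describe the order of the regions. *Grm7* overlapped between all regions, so its values cannot be read in this way.

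Genes that act with the receptors were read in 6 lists, of which 70 of 71 genes were tested, and 315 of their 420 values between regions passed, beside 29.0% to 56.1% of all genes in the 6 comparisons. Among 14 scaffolds and partners of group I receptors, 9 were higher and 2 lower in the dorsal striatum than in the hypothalamus, where 56.1% of all genes passed. The median log2 difference was 0.56 beside -0.04 for all genes. With library size alone 7 were higher and 4 lower, with a median of 0.19. The largest changes among those named were *Homer1* (3.06, adjusted p 3.4e-105), *Tamalin* (2.87, adjusted p 6.37e-57) and *Dlgap3* (2.33, adjusted p 4.56e-112). Against the motor cortex the dorsal striatum was higher in 7 and lower in 5 (median 0.41, all genes 0.03, 43.4% of all genes passing), with *Shank1* at -2.60 and *Homer2* at -2.11. Motor cortex against hypothalamus gave 10 higher and 1 lower (median 0.94, all genes -0.05, 48.2% of all genes passing).

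Of the Gq pathway list, 15 genes were tested. Between dorsal striatum and hypothalamus, where 56.1% of all genes passed, 9 were higher and 4 lower (median 0.53), and with library size alone 7 and 6 (median 0.18), including *Itpr1* (3.08, adjusted p 1e-94), *Prkcb* (2.66, adjusted p 7.99e-106) and *Plcb1* (2.57, adjusted p 4.37e-120). Between dorsal and ventral striatum (29.0% of all genes) 6 were higher and 3 lower (median 0.18), and with library size alone 5 and 4 (median 0.03), with *Itpr1* at 1.57 and *Plcb1* at 1.51. Against the motor cortex (43.7% of all genes) the ventral striatum was higher in 2 and lower in 9 (median -0.58), among them *Dgkz* at -2.10 and *Dagla* at -1.50. The dorsal striatum was higher in 5 and lower in 7 than the motor cortex (median -0.16, 43.4% of all genes). With library size alone this was 4 and 7 (median -0.28).

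The Gi/o pathway list of group II and III receptors also had 15 genes tested. In the dorsal striatum 4 were higher and 9 lower than in the motor cortex (median -0.53, 43.4% of all genes passing), and 4 were higher and 8 lower than in the hypothalamus (median -0.26, 56.1%), the latter 4 and 10 with library size alone (median -0.62). *Adcy5* stood on the other side of these medians, at 3.63 against the motor cortex (adjusted p 3.86e-125) and 3.30 against the hypothalamus (adjusted p 2.39e-186), while *Kcnj3* was at -3.44 and *Kcnj6* at -3.62 against the motor cortex. Motor cortex against hypothalamus (48.2% of all genes) gave 10 higher and 3 lower (median 0.34), and with library size alone 6 and 3 (median 0.10). Dorsal against ventral striatum (29.0% of all genes) gave 6 higher and 5 lower (median -0.02), which turned to 5 and 7 with library size alone (median -0.17).

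The other 3 lists held fewer genes. Of 6 partners and trans-synaptic proteins of group III receptors, 2 were lower in dorsal than ventral striatum (median -0.13, 29.0% of all genes passing; 4 with library size alone, median -0.29), *Elfn1* (-1.65, adjusted p 9.76e-18) and *Grip2* (-0.78, adjusted p 0.000177), in edgeR. *Elfn1* was also below the motor cortex by -0.74 in the dorsal striatum and above it by 0.91 in the ventral striatum. Of 10 desensitisation genes, 5 were higher and 3 lower in the dorsal striatum than in the hypothalamus (median 0.18, 56.1% of all genes passing), which turned to 4 and 5 with library size alone (median -0.18), with *Rgs4* at 2.42 and *Grk3* at -1.48. Of 10 genes of glutamate supply, release and clearance, 3 were higher and 5 lower in the dorsal striatum than in the hypothalamus (median -0.43, beside the same 56.1%), and 3 and 7 with library size alone (median -0.79), with *Slc17a6* at -7.53 (adjusted p 5.15e-60), and *Slc17a7* was at -8.06 in ventral striatum against motor cortex (adjusted p 6.84e-28).

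The promoter of *Grm2* was read from the RefSeq entry on GRCm38.p6, as the 250 bases upstream of its start on the minus strand, chr9:106656110-106656359. Capitals mark the letters TTCAGCACC and GGACAGC, the left and right parts of the REST element, which were searched on both strands and were chosen after the sequence was seen.

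Grm2 promoter: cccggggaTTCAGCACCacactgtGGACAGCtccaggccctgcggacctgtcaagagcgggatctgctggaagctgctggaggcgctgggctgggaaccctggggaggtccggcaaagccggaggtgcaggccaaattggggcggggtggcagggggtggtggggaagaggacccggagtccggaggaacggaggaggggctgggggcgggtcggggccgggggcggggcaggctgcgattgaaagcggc

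They begin at -242 and -226 from the start, with 7 bases between them. The search allowed any spacing up to 20 bases, and the spacing found was not compared with that of the REST element. Among 32851 promoter windows of 300 bases, the left part was found in 122 (0.371%), the right part in 2155 (6.56%), and both in order on 1 strand, with at most 20 bases between them, in 12 (0.0365%). The 300-base *Grm2* window had 72.0% GC, against a median of 52.7% over all windows, and 22 CpG. Neither was found in the windows of *Grm3*, *Grm7* or *Grm8*, of which the first *Grm8* window is printed for comparison (chr6:28135147-28135396, minus strand; its window of 300 bases had 67.0% GC and 33 CpG). A match to these letters describes the sequence and does not show binding. For *Grm4* and *Grm5* the reference set at hand held no entry.

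Grm8 first promoter: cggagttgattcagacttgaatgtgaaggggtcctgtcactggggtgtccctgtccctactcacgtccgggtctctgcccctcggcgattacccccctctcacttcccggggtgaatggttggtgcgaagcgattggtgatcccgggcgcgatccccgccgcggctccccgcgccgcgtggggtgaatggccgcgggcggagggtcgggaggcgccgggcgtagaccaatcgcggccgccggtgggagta

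The genotype comparisons were made within each region, as KO against WT, Het against WT and KO against Het, which share libraries and are not independent. In the motor cortex the comparisons with WT rest on 1 WT library and a spread taken from the other groups, so they do not measure the spread of WT. Of the 72 member values, the likelihood ratio test of edgeR called 0 at an adjusted p of 0.05, and 2 had an unadjusted p below 0.05, with a smallest adjusted p of 0.425. The quasi-likelihood test gave 0 and 1, with a smallest adjusted p of 0.635, and DESeq2 gave 0 and 1, with 0.921. With library size alone, where the all-gene median of KO against WT in the dorsal striatum moved by 0.28 and that of Het against WT by 0.19, the counts were 0 and 4 and the smallest adjusted p 0.0937. The log2 changes ran from -0.39 to 1.00, and 65 of the 72 intervals of 95% lay within 1 log2 unit of 0 on both sides.

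All genes were also rarely called. In the dorsal striatum 0.387% of genes passed for KO against WT (58 genes), 0.0868% for Het against WT (13) and 0.461% for KO against Het (69), and 0 members did in each. The ventral striatum gave 0.0801% (12), 0.0534% (8) and 0.0467% (7), the motor cortex 0.0334% (5), 0.0134% (2) and 0.00668% (1), and the hypothalamus 0.167% (25), 0.0935% (14) and 0.234% (35), again with 0 members each in edgeR. The numbers of genes depended on single libraries. For KO against WT the dorsal striatum gave 151 without 7b, 29 without 8b, 11 without WT 1b and 23 without WT 2b, and the ventral striatum 159 without 7a, 4 without 8a and 5 without WT 1a. The motor cortex gave 2 without 7d, and the hypothalamus 143 without 7f, 4 without 8f and 8 without WT 1f. For KO against Het the dorsal striatum gave 15 without Het 5b and 19 without Het 4b. In the ventral striatum that comparison gave 39 without 7a, 0 without 8a and 2 without each of the 3 Het libraries, and in the hypothalamus 97 without 7f, 0 without 8f, 17 without Het 5f and 14 without Het 6f. In the motor cortex it gave 7 without 8d and 0 without 7d, Het 5d or Het 6d. Het against WT in the dorsal striatum ranged from 4 without Het 4b to 73 without WT 2b, in the ventral striatum from 3 without Het 6a, WT 1a or WT 3a upwards, in the motor cortex up to 4 without Het 5d, and in the hypothalamus from 2 without WT 3f upwards. Members called stayed at 0 in edgeR with each library left out.

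**Figure D4:**
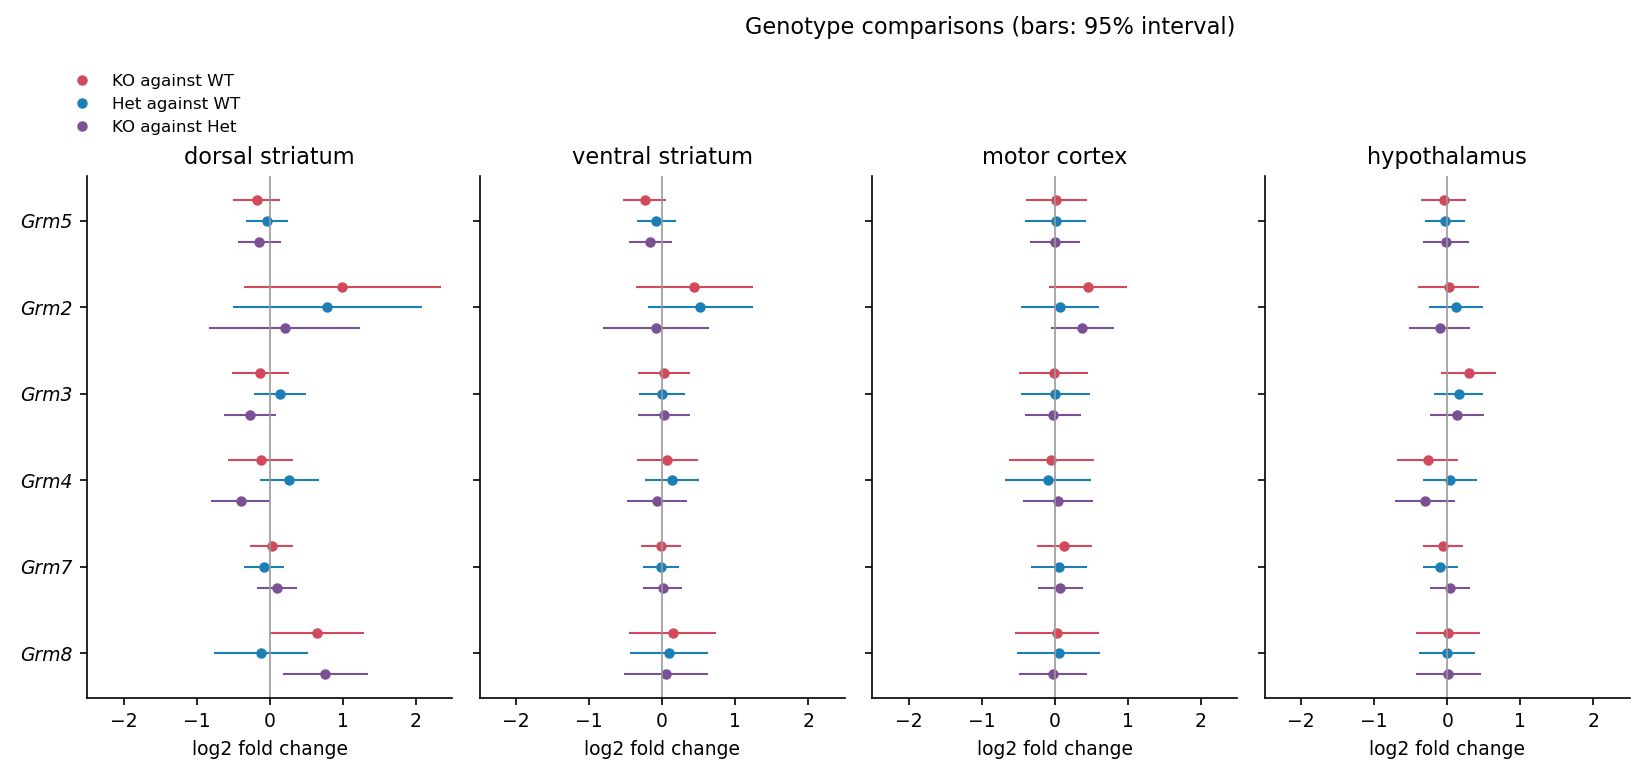
Log2 changes of the receptor genes for the genotype comparisons in each region, with 95% intervals. Among the 6 members the 2 unadjusted p values below 0.05 were those of *Grm8* in the dorsal striatum, where KO against WT gave 0.65 and KO against Het 0.77, and 0 passed adjustment in edgeR.

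The 2 values with an unadjusted p below 0.05 were both those of *Grm8* in the dorsal striatum. Its CPM was 6.60 and 4.99 in WT, 3.67, 6.13 and 6.27 in Het, and 9.21 and 8.66 in KO libraries, from 18 to 40 counts each. Both KO libraries were above all WT and Het libraries, and these are also the libraries 7b and 8b that stood apart in marker genes. Such a separation was not particular to *Grm8*. In TMM-scaled CPM both KO libraries were below all WT and Het libraries of the dorsal striatum for *Grm3* (160.2 and 172.1 against 172.7 or more). The same held for *Grm4* (173.8 and 185.0 against 192.9 or more). How many of all genes separate in this way was not counted. KO against Het was 0.77 (SE 0.295, unadjusted p 0.00928, adjusted p 0.425) and KO against WT 0.65 (SE 0.33, unadjusted p 0.0478, adjusted p 0.623). With 1 library left out, KO against Het ran from 0.53 without Het 4b to 0.89 without Het 6b, and KO against WT from 0.44 without WT 2b to 0.84 without WT 1b. Among the other settings KO against WT reached 0.93, and with library size alone its adjusted p in edgeR was 0.0937. In the ventral striatum *Grm8* KO against WT was 0.14 (-0.22 to 0.44 with 1 library left out), beside 0.03 for motor cortex (-0.03 to 0.09) and 0.01 for hypothalamus (-0.04 to 0.07), where the sign changed without 8a or WT 2a, without 7d, and without 7f, 8d or WT 2f. Among the other settings the hypothalamic value reached -0.07. The difference of the effect between dorsal striatum and hypothalamus was 0.63 (adjusted p 0.839).

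*Grm2* gave the largest genotype change by size, on few counts. In the dorsal striatum its CPM was 0.899 and 0.907 in WT, 1.22, 1.47 and 2.18 in Het, and 2.76 and 0.787 in KO libraries, so that the KO libraries lay on both sides of the others. KO against WT was 1.00 (SE 0.691, adjusted p 0.756), and it became -0.19 without 7b and 1.58 without 8b. Library 7b, with the higher *Grm2* value, was also the one with 179 CPM of *Slc17a7*. WT library 2b held 56.4 CPM of *Slc17a7* with 0.907 CPM of *Grm2*, while Het library 6b held 6.81 CPM of *Slc17a7* with 2.18 CPM of *Grm2*. In the motor cortex, where *Grm2* was highest, KO against WT was 0.45, from a single WT library. KO against Het was 0.38 (unadjusted p 0.0866 in edgeR), and neither change passed adjustment. Both KO libraries were above the Het and WT ones. These libraries are few, and how many of all genes show such an order was not counted.

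**Figure D5:**
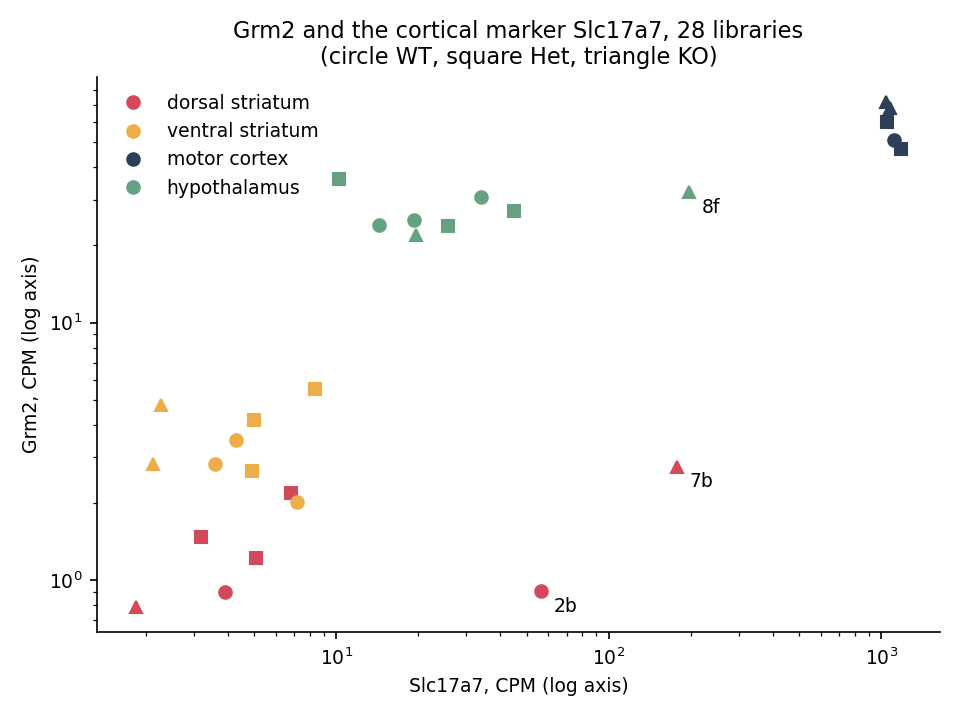
*Grm2* against *Slc17a7*, both in CPM, in each of the 28 libraries. KO dorsal striatum library 7b had 2.76 CPM of *Grm2* and 179 CPM of *Slc17a7*, and WT dorsal striatum library 2b had 0.907 and 56.4 CPM.

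For the other members the genotype values were smaller. *Grm4* in the dorsal striatum was 197.6 and 192.9 CPM in WT, 290.5, 218.7 and 196.9 in Het and 173.8 and 185.0 in KO, and KO against Het gave -0.39 (SE 0.206, unadjusted p 0.0588, adjusted p 0.7), or -0.21 without Het 4b. *Grm5* KO against WT was -0.18 in the dorsal striatum, -0.24 in the ventral striatum (unadjusted p 0.113, adjusted p 0.942), 0.02 in motor cortex and -0.05 in hypothalamus. The ventral striatal value was -0.00 without library 8a, which held 167.5 CPM, and -0.53 without 7a. *Grm3* KO against WT was -0.13, 0.02, -0.01 and 0.29 in the dorsal striatum, ventral striatum, motor cortex and hypothalamus, and *Grm7* was 0.03, -0.01, 0.13 and -0.06, with 0 of these passing in edgeR by adjusted or unadjusted p. With library size alone the dorsal striatal values of *Grm3* and *Grm5* turned to 0.15 and 0.11, and the hypothalamic value of *Grm5* turned to 0.03 without WT 3f. *Grm4* KO against WT in the dorsal striatum was -0.12 and reached 0.165 among the settings that did not leave out a single library. WT dorsal striatum library 1b had the lowest TMM factor of all libraries (0.734), followed by WT 2b (0.857). The dorsal striatal value of *Grm7* reached 0.31 among the settings that did not leave out a single library. The *Grm3* sign also changed in the ventral striatum (-0.34 without 7a, and without WT 3a), the motor cortex (0.05 without 7d, and with library size alone) and the hypothalamus (-0.13 without 8f). The *Grm7* sign changed in the ventral striatum (0.23 without 8a, also without WT 1a and with library size alone) and the hypothalamus (0.05 without WT 2f).

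Whether the KO against WT change differed between regions was tested directly. In edgeR 0 of 18 member values passed and 0 had an unadjusted p below 0.05, beside 0.00668% of all genes for dorsal less ventral striatum (1 gene), 0.154% for dorsal striatum less hypothalamus (23) and 0.1% for ventral striatum less hypothalamus (15). Those numbers of genes became 27 without 7b for the first, 89 without 7b and 1 without 8f for the second, and 103 without 7a and 1 without 8f for the third. The quasi-likelihood test and DESeq2 also gave 0 and 0, and library size alone gave 0 and 2. The largest was *Grm2* for dorsal striatum less hypothalamus, at 0.98 (adjusted p 0.875), which became -0.21 without 7b and 1.56 without 8b.

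Of the 840 genotype values of the list genes, 3 passed, all for KO against Het in the dorsal striatum, where 0.461% of all genes did. With library size alone, KO against WT in the dorsal striatum also gave 1 scaffold gene and 2 genes of the Gi/o list, all higher, where 499 of all 14979 genes were called higher under that scaling. *Slc17a7* was 4.16 higher (SE 0.874, adjusted p 0.00458), with 179 CPM in 7b and 1.84 in 8b against 5.10, 3.19 and 6.81 in Het, and without 7b it was -1.44 (adjusted p 0.868). It also did not pass without Het 4b (4.17, adjusted p 0.0756) or Het 5b (3.92, adjusted p 0.0991), in the quasi-likelihood test (adjusted p 0.0722) or in DESeq2 (adjusted p 0.107). The WT libraries 1b and 2b held 3.90 and 56.4 CPM of *Slc17a7*. *Kcnj6* was 1.43 higher (SE 0.399, adjusted p 0.048), with 9.44 CPM in 7b and 1.84 in 8b against 2.24, 1.96 and 2.18 in Het, and without 7b it was -0.21 (adjusted p 0.979). In 21 of 35 alternatives it did not pass, among them the quasi-likelihood test (adjusted p 0.378), DESeq2 (adjusted p 0.189), and the fits without Het 4b (1.48, adjusted p 0.174), 5b (1.38, adjusted p 0.22) or 6b (1.45, adjusted p 0.09). The WT libraries held 3.30 and 4.31 CPM of *Kcnj6*, above the Het libraries and 8b. *Rgs2* changed by -0.89 (SE 0.207, adjusted p 0.0111), at 78.3 and 74.5 CPM in KO against 147, 168 and 110 in Het and 92.6 and 163 in WT, and both KO libraries were below all Het and WT ones. *Rgs2* did not pass in 6 of 35 alternatives: without 7b (-0.93, adjusted p 0.139), without 8b (-0.86, adjusted p 0.177), without Het 4b (-0.86, adjusted p 0.0823), without Het 5b (-0.75, adjusted p 0.171), with library size alone (-0.79, adjusted p 0.0774) and in the quasi-likelihood test (adjusted p 0.0709). In DESeq2 its adjusted p was 0.0433. Among the KO and Het dorsal striatal libraries, only the omission of Het 6b kept the *Rgs2* call. The other omissions that kept it were of libraries outside this comparison.

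Reads were 50 bases long, and the words of 50 bases in the exons of each receptor gene were compared with those of all other genes. *Grm3* and *Grm4* shared 0 words, *Grm5* 0.136%, *Grm8* 0.471%, *Grm7* 1.37% and *Grm2* 8.53% of 4937, and the *Grm2* words were shared with *Gm28111*, a gene on the other strand that is not in the count files. No word was shared between the 6 members.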

How the data were processed

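RNA from the 4 regions was sequenced by the submitters as 50-base single-end reads from 5 ng of RNA. The submitters' processing notes name Trimmomatic 0.32, Bowtie2 2.2.3, STAR 2.3.1z8, SAMtools 0.1.19 and HTSeq 0.6.1p1 for the steps from reads to counts. The values used are counts of reads per gene in the files the authors deposited, 1 file per library, with 29878 genes each, of which 28758 identifiers were named by GENCODE M21. The files also tally reads in entries that name no gene, such as ambiguous or unassigned reads, and these held 45.78% to 55.22% of all tallied reads and were left out. Libraries held 3536802 to 5150280 counts on genes, so a gene near 1 CPM rests on few counts and its fold changes have wide intervals.

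All 28 libraries were fitted together in R 4.3.3 with edgeR 4.0.16, with 12 groups of genotype and region, TMM factors, a filter of more than 1 CPM in at least 2 libraries (14979 genes), and likelihood ratio tests. P values were adjusted over all genes tested within each comparison and called at 0.05. Regions were compared with genotypes at equal weight, genotypes within each region, and the KO against WT change between regions as a difference. Where a group had 1 library, its spread was taken from the other groups. CPM are TMM scaled, and log2 CPM for correlations used a prior count of 2. Alternatives were the quasi-likelihood test, DESeq2 1.42.0, its size factors, library size alone, no filter, filterByExpr, only the libraries of the regions compared, a replicate block, single genotypes, coding length for shares, and each library left out in turn. Single genotypes were contrasts within the fit of all libraries and used its spread and TMM factors. Those of WT with the motor cortex rest on 1 motor cortex library.

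Members, pathway lists and marker lists were chosen with earlier results of these data known. Genes named are the members, 2 or 3 of the genes closest to each member by correlation, up to 3 genes with the smallest p in each pathway list and comparison described, list genes called between genotypes, and markers of libraries that stood apart. Libraries were checked for duplicates within groups: chi-square per degree of freedom over 21 pairs was 1.86 to 14.59, so no pair was a copy. The labels do not say whether libraries of the same number came from the same mouse, so the regions compared may share mice. Library numbers across regions showed no pairing in the residuals, which correlated at a mean of 0.007 over 34 pairs with the same number. The main fit treated libraries as unpaired.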

Additional observations from a re-analysis of the deposited data

Results flagged for a closer look

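In 24 sets of 1 member in 1 region, the library furthest from the rest was examined, and in 4 its distance in log2 CPM from the nearest other library, as a share of the whole range of the set, was above the 95% critical value of Dixon's test for that number of libraries. These were *Grm5* in the ventral striatum, where KO library 8a was lowest at 167 CPM, *Grm7* in the dorsal striatum, where Het library 5b was lowest at 52.7 CPM, *Grm7* in the hypothalamus, where WT library 2f was highest at 61.1 CPM, and *Grm8* in the hypothalamus, where Het library 6f was lowest at 11.3 CPM. The critical value is meant to pick out about 1 in 20 sets of like libraries by chance. These sets pooled genotypes and shared libraries, and the rate for them was not measured. Library 8a also had the lowest spiny neuron marker sum of its region and 6f the highest thalamic sum, and their part in these values was not tested. The 4 values fell in 4 different libraries.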

How the results depend on the processing

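The 36 member values between regions were recomputed in 1404 alternative values, of which 1356 stayed on their side of the threshold, with called values keeping their direction, 43 no longer passed, 4 newly passed and 1 reversed. The reversal was *Grm7* in dorsal striatum against hypothalamus, at -0.15 with library size alone (adjusted p 0.128). All 2508 alternative values of the 72 genotype results stayed above 0.05, with a smallest adjusted p of 0.0937, as did the 630 of the 18 differences between regions (smallest 0.183). Most alternatives left out 1 library, and for a given result many of these libraries lay outside the groups compared. Such fits could move a result only through the shared spread, scaling and filter, so these totals do not measure its stability. Among values that did not pass in either, 146 changed sign.

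Of the 29 region calls, library size alone kept 24, lost 5 and added 1, no filter on low counts kept 28 and added 0, and the other settings over all libraries kept 29 and added 0 (edgeR or DESeq2). With library size alone the genes higher and lower changed from 2185 and 2158 to 1269 and 3789 in dorsal against ventral striatum, from 3211 and 3288 to 2215 and 4139 in dorsal striatum against motor cortex, and from 3815 and 4592 to 1939 and 8124 in dorsal striatum against hypothalamus. They changed from 2950 and 3583 to 1610 and 6214 in ventral striatum against hypothalamus and from 3425 and 3799 to 2100 and 6115 in motor cortex against hypothalamus. With library size alone *Grm7* in motor cortex against hypothalamus newly passed at -0.26 (adjusted p 0.0186).

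With a replicate block, in which libraries of the same number were paired, *Grm2* in dorsal striatum against motor cortex was -5.24 (adjusted p 3.98e-141) and *Grm4* in ventral striatum against hypothalamus 0.29 (adjusted p 0.0398).

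By coding length the shares of group I, II and III in the sum of the 6 members were 33.6%, 27.9% and 38.5% in the dorsal striatum, 33.5%, 33.1% and 33.4% in the ventral striatum, 17.2%, 57.4% and 25.4% in the motor cortex, and 21.6%, 29.1% and 49.3% in the hypothalamus.

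Genes called for KO against WT ranged over alternatives from 12 to 499 in the dorsal striatum (58 as reported), 4 to 13 in the ventral striatum (12), 1 to 60 in the motor cortex (5) and 4 to 26 in the hypothalamus (25), and with 1 library left out from 11 to 151, 4 to 159, 2 to 7 and 4 to 143. For Het against WT they ranged from 3 to 56 (13), 2 to 8 (8), 1 to 7 (2) and 1 to 14 (14), and with 1 library left out from 4 to 73, 3 to 8, 2 to 4 and 2 to 16. For KO against Het they ranged from 13 to 85 (69), 1 to 9 (7), 0 to 56 (1) and 0 to 35 (35), and with 1 library left out from 15 to 89, 0 to 39, 0 to 7 and 0 to 97. The differences of dorsal less ventral striatum, dorsal striatum less hypothalamus and ventral striatum less hypothalamus gave 0 to 6 (1), 1 to 139 (23) and 1 to 20 (15) genes, and with 1 library left out 0 to 27, 1 to 89 and 1 to 103.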
